A study of Homo sapiens with 9 samples.

Results

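The growth hormone and prolactin receptor pathway was read in T47D cells from 7 genes, taken as every probe whose gene name in the array files was GHR, PRLR, JAK2, STAT5A, STAT5B, CISH or SOCS2. These were 10 probes of 58201 and 7 genes of 43395 on the array. T47D is a human breast cancer cell line of luminal type, and the study compared 3 stable lines made from it. T47D-VC1 cells carried the empty vector, T47D-PA5 cells an incomplete PTH-AS, and T47D-PA6 cells the full-length PTH-AS, a long noncoding RNA encoded near the parathyroid hormone gene. All lines therefore shared the vector and its drug selection, and each was 1 selected line, so a change brought by PTH-AS and a difference between selected lines cannot be told apart. Each line was measured on 3 one-colour arrays. The sources used here do not say whether these came from separate cultures, so the p-values measure the spread between arrays, which may be technical.

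Growth hormone and prolactin act on the mammary gland through 2 related cytokine receptors, GHR and PRLR. Binding of the hormone brings the kinase JAK2 into action, JAK2 phosphorylates STAT5A and STAT5B, and these enter the nucleus and switch on genes of growth, milk production and lobule development. Among the targets are CISH and SOCS2, which bind the receptors and damp the signal, so that CISH and SOCS2 RNA is often read as a sign of recent STAT5 activity. Prolactin signalling is best known in this tissue for alveolar differentiation, and growth hormone for ductal growth.

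The sequences below show what the array read in the 2 receptors and the STAT5 motif in the feedback gene. The first pair are 60-base receptor probes, printed because they gave the GHR and PRLR values furthest towards the start of each transcript. No base in them is singled out, so they are in lower case throughout.
GHR A_33_P3260733: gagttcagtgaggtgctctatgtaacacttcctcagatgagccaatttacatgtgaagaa
PRLR A_33_P3416757: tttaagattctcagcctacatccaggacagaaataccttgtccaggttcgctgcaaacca

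The GHR probe lies at chr5:42711414-42711473 on the plus strand and the PRLR probe at chr5:35070281-35070340 on the minus strand, in build hg19 as the array files give it. The files assign them to GHR transcript variant 12 and PRLR transcript variant 2. Read in the direction printed, the GHR probe had 1 reading frame without a stop codon and the PRLR probe 2. The other GHR probe, A_24_P72064, lies 10035 bases further along the gene and had no open frame. No annotation of hg19 was used here, so exons and untranslated regions are not given.

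The promoter sequences come from RefSeq on build GRCh38.p14, whose table held 6 of the 7 genes. The motif searched was TTCNNNGAA, the core that STAT5 dimers are known to bind. It reads the same on both strands, and each window ran from 250 bases before to 50 bases after a transcription start. It was found in 7.66% of all 35116 windows. The single CISH window held 4 matches, a count that 7 windows reached, CISH included. One of the 7 GHR windows held 1 match, TTCAAAGAA, 138 to 130 bases before its start. The 2 PRLR, 4 JAK2, 3 STAT5A and 1 STAT5B windows held none. The 250 bases before the CISH start (chr3:50611775-50612024, minus strand) and the 69 bases around the GHR match (chr5:42549912-42549980, plus strand) are printed with the motif in capitals.
CISH: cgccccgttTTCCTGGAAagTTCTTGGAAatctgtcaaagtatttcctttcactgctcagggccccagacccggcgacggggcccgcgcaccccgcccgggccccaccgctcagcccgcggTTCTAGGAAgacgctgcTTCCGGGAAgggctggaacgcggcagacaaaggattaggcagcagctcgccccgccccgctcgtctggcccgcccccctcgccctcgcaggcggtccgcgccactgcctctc
GHR: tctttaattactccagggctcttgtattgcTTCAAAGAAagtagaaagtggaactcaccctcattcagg

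The matches in CISH start 241, 230, 129 and 112 bases before the start site, and none overlaps another. A match is only a run of letters, and the arrays did not measure binding.

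On each array 44% to 48% of the probes stood well above background, and none was saturated. Testing was limited to probes that stood well above background throughout the arrays of 1 line or more, 26171 probes of 20106 genes. Of the 10 probes of the pathway 9 were tested, and they passed in all 3 lines. No probe bore the name PTH-AS, so the arrays did not check the transgene, and the single PTH probe was above background on none of the 9 arrays. All 8 luminal markers, among them ESR1, GATA3 and EPCAM, were above background on every array, with a summed signal of 475000 to 514000 over the 9 arrays. The progesterone receptor PGR was lower in T47D-PA6 than in T47D-VC1 by limma (log2 -1.07, adjusted p = 0.0072) and than in T47D-PA5 (-0.69, adjusted p = 0.037), and the other 7 were not called. Of the 5 basal markers 1 was above background on all arrays, with summed signals of 388 to 846 in T47D-VC1 and 991 to 1450 in T47D-PA6, and of the other 4 KRT14 was above background on 3 of the 9 arrays and KRT5, TP63 and MYH11 on none. In T47D-PA6 against T47D-VC1 limma also called CD14, a leukocyte marker, higher (log2 1.80, adjusted p = 0.0082) and COL1A1, a fibroblast marker, lower (log2 -0.50, adjusted p = 0.020), while CD3E, COL1A2, DCN and LUM were above background on no array. Their part in the results below was not tested. The replicate 1 arrays shared a slide that was scanned in a run before the other 6. In a culture measured as a whole, fewer cells making a transcript and less RNA per cell cannot be told apart.

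GHR was the gene of the pathway that limma called between the lines at the probe from which each gene was read. A further probe, of PRLR, was also called. Signals are quantile-normalized and linear, means are geometric, and SDs are on the log2 scale with n = 3. At probe A_24_P72064 (hg19 chr5:42721449-42721508), from which the gene was read, the GHR signal was 2050, 2400 and 2490 on the T47D-VC1 arrays. It was 1530, 1840 and 1750 in T47D-PA5. In T47D-PA6 it was 761, 930 and 1010. All T47D-PA6 arrays lay below all T47D-PA5 arrays, which in turn lay below all T47D-VC1 arrays. The mean signals were 2310 (SD 0.15), 1700 (SD 0.14) and 893 (SD 0.21), respectively.

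GHR expression in T47D-PA6 was 0.387 times that in T47D-VC1, a log2 fold change of -1.37 (SE 0.14, 95% confidence interval -1.69 to -1.05, limma adjusted p = 0.0012). It was 0.525 times that in T47D-PA5 (log2 -0.93, SE 0.14, adjusted p = 0.0067). Between T47D-PA5 and T47D-VC1 the ratio was 0.738 (log2 -0.44, 95% confidence interval -0.76 to -0.12, limma adjusted p = 0.17), which did not pass. The T47D-PA6 value against T47D-VC1 was -1.43 on the slide that held replicate 1 of each line and -1.36 on the slide that held 2 T47D-PA6 arrays and 1 T47D-VC1 array. The study put GHR in a JAK-STAT list picked from these same arrays, so the call is not independent of that choice.

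The second GHR probe gave the same order between T47D-PA6 and the other lines. Its signal was 123, 126 and 127 in T47D-VC1 and 128, 116 and 110 in T47D-PA5, and these groups overlapped. In T47D-PA6 it was 71.4, 49.1 and 46.2, below every other array. The log2 fold change was -1.20 against T47D-VC1 (SE 0.16, adjusted p = 0.0038 by limma over all probes) and -1.11 against T47D-PA5 (adjusted p = 0.0061). Against T47D-VC1 it was -0.79 on the replicate 1 slide and -1.41 in the later scan run, a wider range than at the first probe. Between T47D-PA5 and T47D-VC1 it was -0.09 (95% confidence interval -0.46 to 0.28). The size of the T47D-PA6 differences at this dim probe depended on the background correction. With normexp they were -0.71 against T47D-VC1 and -0.65 against T47D-PA5, both still called. By the methods' t-test neither was called (adjusted p = 0.075 and 0.076).

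**Figure D1:**
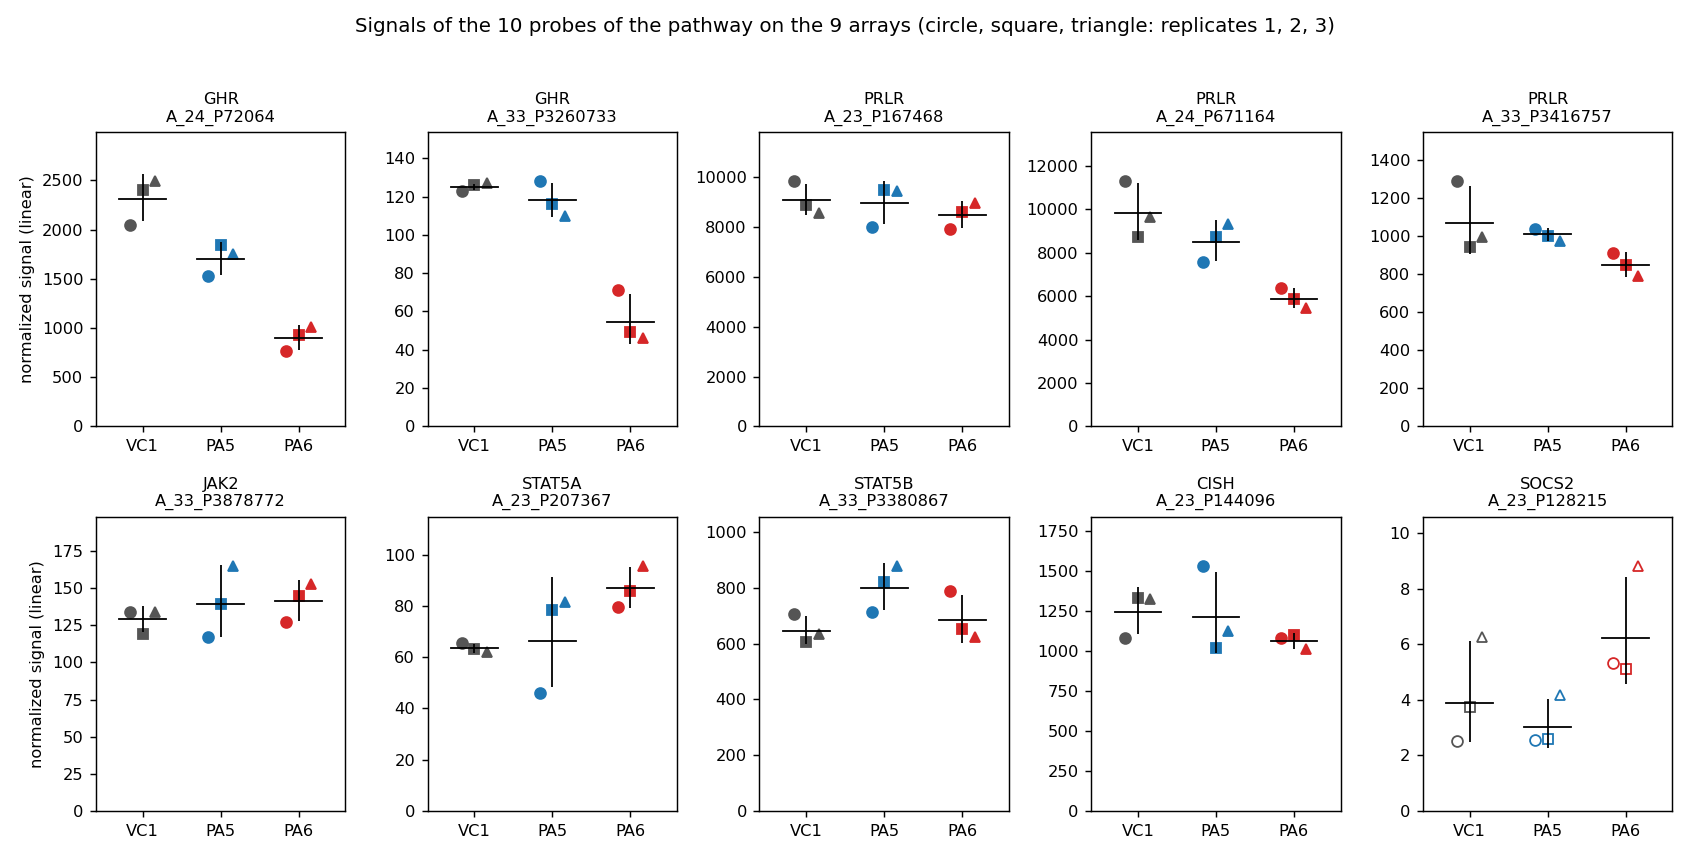
Quantile-normalized signal on a linear axis from 0 for the 10 probes of the 7 genes, 1 panel a probe, in T47D-VC1 (grey), T47D-PA5 (blue) and T47D-PA6 (red). Points are the 9 arrays (open where not well above background), horizontal lines are geometric means and vertical lines 1 SD on the log2 scale. Both GHR probes and the PRLR probe A_24_P671164 are lowest in T47D-PA6, with all 3 arrays below those of the other lines, and SOCS2 is open on all 9 arrays.

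Of the 6 genes tested, 1 was called in T47D-PA6 against T47D-VC1, where 10.0% of all 20106 genes were called and 5.34% were called lower. Against T47D-PA5 it was again 1 of 6, where 9.71% of all genes were called and 6.06% lower. In T47D-PA5 against T47D-VC1 limma called 0 of 6, against 1.67% of all genes; 2 of the 6, GHR and STAT5B, had an unadjusted p under 0.05, and the methods' t-test called 0 after adjustment. By the fold definition of the study's methods, a ratio above 2 or below 0.6, the counts were 1, 0 and 1, where 7.64%, 3.92% and 8.0% of all genes passed. The 6 genes had a median log2 difference of -0.01 in T47D-PA6 over T47D-VC1, 0.02 in T47D-PA5 over T47D-VC1 and -0.13 in T47D-PA6 over T47D-PA5, beside -0.03, -0.03 and 0 over all genes. The comparisons share arrays in pairs and are not independent.

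PRLR, the prolactin receptor, was read by 3 probes, of which 1 was called. At A_23_P167468 (hg19 chr5:35065104-35065163, minus strand), from which the gene was read, the signal was 9830, 8880 and 8560 in T47D-VC1. It was 7990, 9490 and 9430 in T47D-PA5, and 7930, 8610 and 8950 in T47D-PA6. The 3 lines overlapped at this probe. T47D-PA6 differed from T47D-VC1 by a log2 fold change of -0.10 (95% confidence interval -0.35 to 0.15, adjusted p = 0.63 by limma), an interval that leaves room for a ratio as low as 0.785 or as high as 1.11. With the mean of all 3 probes as the PRLR value the difference was -0.39 (adjusted p = 0.060), which lies outside that interval.

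The PRLR probe A_24_P671164 (hg19 chr5:35056203-35056262) lies 8901 bases further towards the 3' end, and the files assign both to transcript variant 1. Its signal was 11300, 8710 and 9650 in T47D-VC1. It was 7560, 8730 and 9350 in T47D-PA5, a range that overlapped the controls. In T47D-PA6 it was 6370, 5880 and 5460, below every array of the other lines. The log2 fold change of T47D-PA6 was -0.74 against T47D-VC1 (ratio 0.60, SE 0.13, adjusted p = 0.012 by limma over all probes). That call was lost when T47D-PA6 replicate 3 was left out (log2 -0.68, adjusted p = 0.057). Against T47D-PA5 it was -0.53 (adjusted p = 0.041), and with the replicate number as a block the adjusted p was 0.058.

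The third PRLR probe, A_33_P3416757, is annotated to transcript variant 2, and whether it reads only that variant was not tested. Its signal was 1290, 945 and 997 in T47D-VC1 and 1040, 1000 and 976 in T47D-PA5. In T47D-PA6 it was 915, 850 and 789, again below every other array. The log2 fold change against T47D-VC1 was -0.33 (95% confidence interval -0.63 to -0.02, adjusted p = 0.16 by limma) and did not pass. Counted by probe, 3 of the 9 tested probes were called lower in T47D-PA6 than in T47D-VC1 (2 of GHR and 1 of PRLR), where 10.6% of all probes were called in either direction and 6.12% lower. The same 3 were called against T47D-PA5, beside 9.91% of all probes and 6.45% lower. Limma called 0 in T47D-PA5 against T47D-VC1, beside 1.62%, with 2 of 9 at an unadjusted p under 0.05.

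The log2 ratio of the probe furthest 3' to the middle probe was taken within each array, a comparison chosen after the values were seen. It was 0.20, -0.03 and 0.17 in T47D-VC1 and -0.08, -0.12 and -0.01 in T47D-PA5. In T47D-PA6 it was -0.32, -0.55 and -0.71, below all other arrays. The mean was lower in T47D-PA6 by 0.64 than in T47D-VC1 and by 0.46 than in T47D-PA5, and each difference had an exact two-sided permutation p = 0.1, the smallest that 3 against 3 arrays allow (0.24 adjusted over the 12 such differences between PRLR or GHR probes). This design cannot pass 0.05, so the ratio is given as a description, and it does not show which probe moved. Against T47D-VC1, the log2 ratio of A_33_P3416757 to the middle probe was lower in T47D-PA6 by a difference of -0.23 (exact permutation p = 0.2), and that of A_24_P671164 to A_33_P3416757 by -0.41 (exact permutation p = 0.1).

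**Figure D2:**
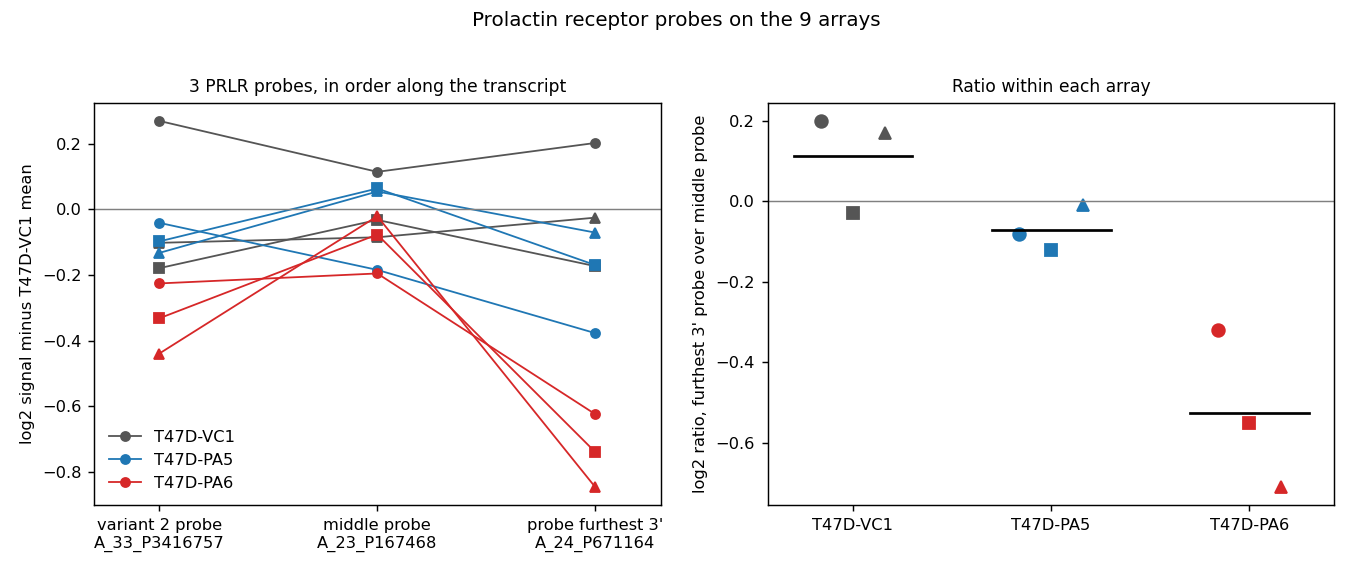
Left, log2 signal of the 3 PRLR probes minus the T47D-VC1 mean of each probe, in order from 5' to 3' along the gene, 1 line an array. Right, log2 ratio of the probe furthest 3' (A_24_P671164) to the middle probe (A_23_P167468) on each array, with the mean as a bar. The T47D-PA6 arrays join the others at the middle probe and lie below them at the probe furthest 3'.

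JAK2, the kinase bound to both receptors, was measured at low signal at A_33_P3878772 (hg19 chr9:5127355-5127414). The values were 134, 119 and 134 in T47D-VC1, 117, 139 and 165 in T47D-PA5, and 127, 145 and 153 in T47D-PA6. The lines overlapped. T47D-PA6 differed from T47D-VC1 by 0.13 on the log2 scale (95% confidence interval -0.20 to 0.46, adjusted p = 0.62 by limma), and T47D-PA5 by 0.11.

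STAT5A, the transcription factor first described as mammary gland factor, was also dim. At A_23_P207367 (hg19 chr17:40463483-40463542) it read 65.7, 63.1 and 62.0 in T47D-VC1 and 79.6, 86.0 and 95.7 in T47D-PA6, and these groups did not overlap. T47D-PA5 read 45.9, 78.5 and 81.5, with replicate 1 the lowest and the other arrays above the controls. The log2 fold change of T47D-PA6 over T47D-VC1 was 0.45 (SE 0.21, 95% confidence interval -0.02 to 0.92, adjusted p = 0.21 by limma) and did not pass. Without T47D-PA5 replicate 1 in the fit, the same difference of 0.45 had an adjusted p of 0.031.

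STAT5B, the close relative of STAT5A that carries most growth hormone signalling in other tissues, had its probe A_33_P3380867 at hg19 chr17:40351196-40351255 on the minus strand. Its signal was 705, 604 and 636 in T47D-VC1. It was 713, 821 and 879 in T47D-PA5, above every control array. In T47D-PA6 it was 788, 654 and 622, overlapping both. T47D-PA5 over T47D-VC1 was 0.31 on the log2 scale (95% confidence interval 0.01 to 0.61, adjusted p = 0.30 by limma) and T47D-PA6 over T47D-VC1 was 0.08 (adjusted p = 0.75).

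CISH, the feedback inhibitor whose promoter is printed above, was at A_23_P144096 (hg19 chr3:50644023-50644082, minus strand). Its signal was 1080, 1330 and 1320 in T47D-VC1, 1530, 1020 and 1120 in T47D-PA5, and 1080, 1100 and 1010 in T47D-PA6. T47D-PA5 replicate 1 gave the highest value of the 9 arrays and the lowest for STAT5A. The log2 fold change was -0.22 in T47D-PA6 over T47D-VC1 (95% confidence interval -0.59 to 0.15, adjusted p = 0.43 by limma), -0.04 in T47D-PA5 over T47D-VC1 and -0.19 in T47D-PA6 over T47D-PA5. Within scan runs T47D-PA5 over T47D-VC1 was 0.50 in the earlier run, with 1 array a line, and -0.31 in the later run, so the direction turned with the run.

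SOCS2, the other STAT5-induced inhibitor of the growth hormone receptor, stayed below the detection call on all 9 arrays at its 1 probe, A_23_P128215. Its signals ran from 2.53 to 8.83, while the lowest signal of a probe well above background was 9.59 to 15.2 depending on the array. No fold is given for it, and these arrays do not show whether it differed.

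**Figure D3:**
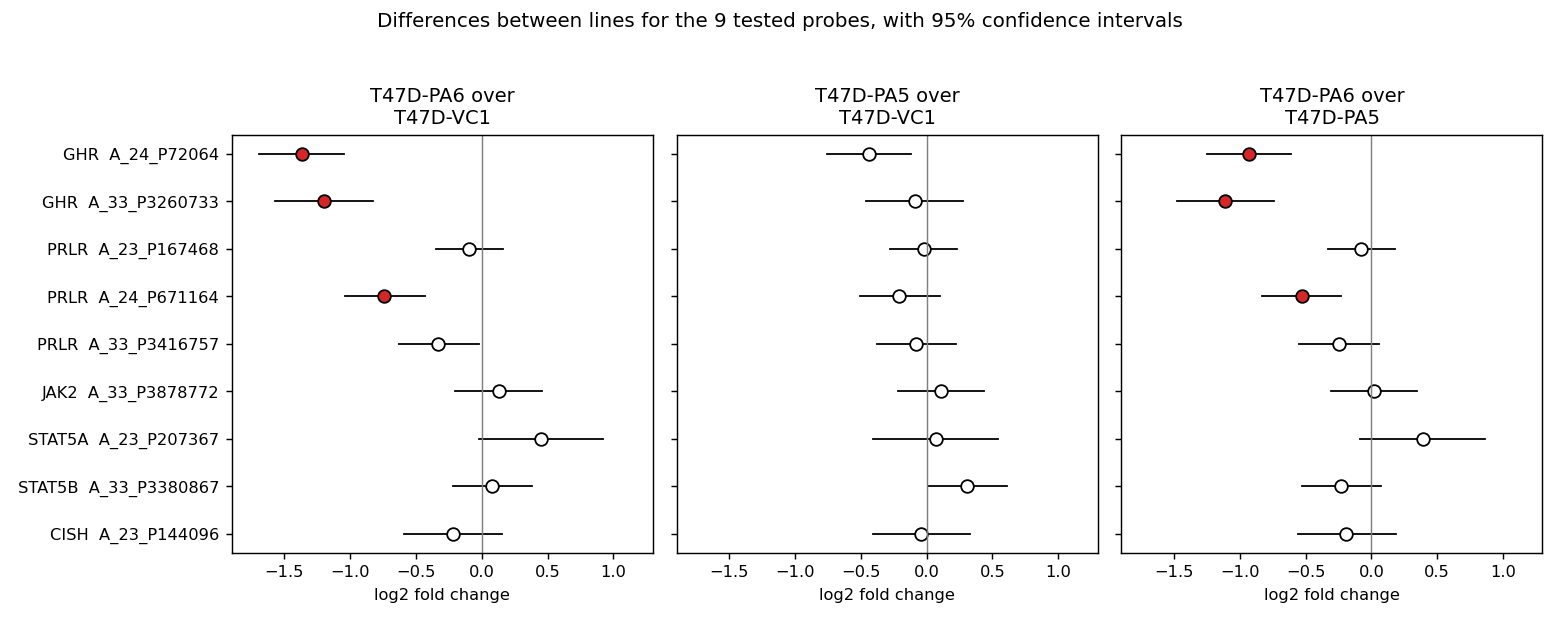
Log2 fold change (points) with 95% confidence intervals (bars) of the 9 tested probes in the 3 comparisons, from limma over all tested probes. Filled points passed an adjusted p of 0.05. The 2 GHR probes and the PRLR probe A_24_P671164 are filled in both comparisons of T47D-PA6, and no point is filled in T47D-PA5 over T47D-VC1.

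Around the 7 genes, 73 further pathway genes were grouped as ligands, kinases and adaptors, negative regulators, targets, other STAT genes, and other receptors that use JAK2 or STAT5. Of these 52 were tested. In T47D-PA6 over T47D-VC1, 5 were called higher and 1 lower, or 11.5% of the 52 beside 10.0% of all genes. In T47D-PA6 over T47D-PA5, 4 were higher and 2 lower, also 11.5%, beside 9.71%. The genes called higher in both include FYN, described below, which was tested only through its T47D-PA6 signal. In T47D-PA5 over T47D-VC1 limma called 0, with 11 at an unadjusted p under 0.05 and 0 by the methods' t-test after adjustment, and without T47D-PA5 replicate 1 limma called 3. The first count was 2 or 3 without any of 6 single arrays (T47D-VC1 replicate 2 or 3, T47D-PA5 replicate 2 or 3, T47D-PA6 replicate 2 or 3), and the second was 1 or 2 without any of the latter 4.

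Of the 6 ligand genes only CSH1, a placental lactogen nearly identical to its neighbours in the growth hormone cluster and so uncertain, was tested, and it was not called. PRL and GH1, which encode prolactin and pituitary growth hormone, were each above background on 1 of 9 arrays. The median log2 fold change of a list in T47D-PA6 over T47D-VC1 was 0.01 for the 17 kinases and adaptors, -0.10 for the 16 negative regulators, 0.21 for the 10 tested targets, -0.03 for the 3 other STAT genes and -0.08 for the 5 other receptors.

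Among kinases and adaptors 2 of 17 were called higher in T47D-PA6 against T47D-VC1, beside 4.69% of all genes called higher, and 1 of these, FYN, entered only through T47D-PA6. FYN, a Src-family kinase, read 2.9, 7.67 and 13.5 in T47D-VC1, with 1 of 3 arrays above background. It read 8.85, 19.8 and 20.8 in T47D-PA5, and 52.1, 101 and 104 in T47D-PA6. A difference was thus built into the selection of FYN, and its size depended on the background correction, with a log2 value of 3.61 on the deposited signals and 1.07 with normexp. SH2B2, an adaptor of JAK2 and the insulin receptor, was higher by 0.57 (adjusted p = 0.049 by limma), a call lost in 12 of 22 alternatives, among them the authors' normalized table (adjusted p = 0.052).

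Among negative regulators SOCS1, the inhibitor of JAK kinases, averaged a signal of 29.8 in the control line and 52.9 in T47D-PA6, a difference of 0.83 on the log2 scale (adjusted p = 0.032 by limma). That call was lost in 11 of 22 alternatives, among them the slide as a block (0.76, adjusted p = 0.063) and normexp (0.29, adjusted p = 0.077). SOCS4 fell by 0.42 (adjusted p = 0.040). PIAS3, which binds activated STAT proteins, was lower in T47D-PA6 than in T47D-PA5 (log2 -0.78, adjusted p = 0.025; with the slide as a block -0.72, adjusted p = 0.051), with mean signals of 3090 in the control line, 5050 in T47D-PA5 and 2930 in T47D-PA6.

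The milk protein genes CSN1S1, CSN2, CSN3 and LALBA, the growth factor gene IGF1 with IGFBP3, and PIGR and TNFSF11 were below background on all arrays, which is 8 of the 18 targets. Of the 10 that were tested, 1 was called higher against T47D-VC1 and 2 against T47D-PA5, beside 4.69% and 3.65% of all genes called higher. WNT4, a progesterone and prolactin target in the gland, read 64.8, 84.5 and 84.7 in T47D-VC1, 55.4, 77.4 and 66.0 in T47D-PA5, and 121, 131 and 148 in T47D-PA6. It rose by 0.78 against T47D-VC1 (adjusted p = 0.023 by limma) and by 1.02 against T47D-PA5 (adjusted p = 0.0084). ID1 exceeded its T47D-PA5 level in T47D-PA6 (log2 1.62, adjusted p = 0.027), with a T47D-PA5 spread of 1790 to 5170, and the call was lost with the slide as a block (1.54, adjusted p = 0.064). ID1 and WNT4 are targets of several pathways, so their values are not a readout of STAT5 alone.

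STAT2, which carries interferon signals, rose in T47D-PA6 by 1.23 on the log2 scale over T47D-VC1 (adjusted p = 0.0081 by limma), a call kept in all 22 alternatives. Over T47D-PA5 the difference was 0.82 (adjusted p = 0.036), and with the slide as a block 0.81 (adjusted p = 0.067). These STAT2 values are for RNA. By Western blotting the study saw no change in total or phosphorylated STAT2 protein with PTH-AS. Among the other receptors CSF2RA was lower in T47D-PA6 than in T47D-PA5 (log2 -0.71, adjusted p = 0.039 by limma). Its mean signal was highest in T47D-PA5, at 98.3, beside 63.6 for the control line and 60.3 for T47D-PA6. Against the control line the CSF2RA difference of T47D-PA6 was -0.08 (limma adjusted p = 0.82), which did not pass. Of the 22 alternatives, SOCS4 was called in 13 and WNT4 in 16 against T47D-VC1, and WNT4 in 21, PIAS3 in 15, ID1 and CSF2RA in 14 and STAT2 in 13 against T47D-PA5.

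**Figure D4:**
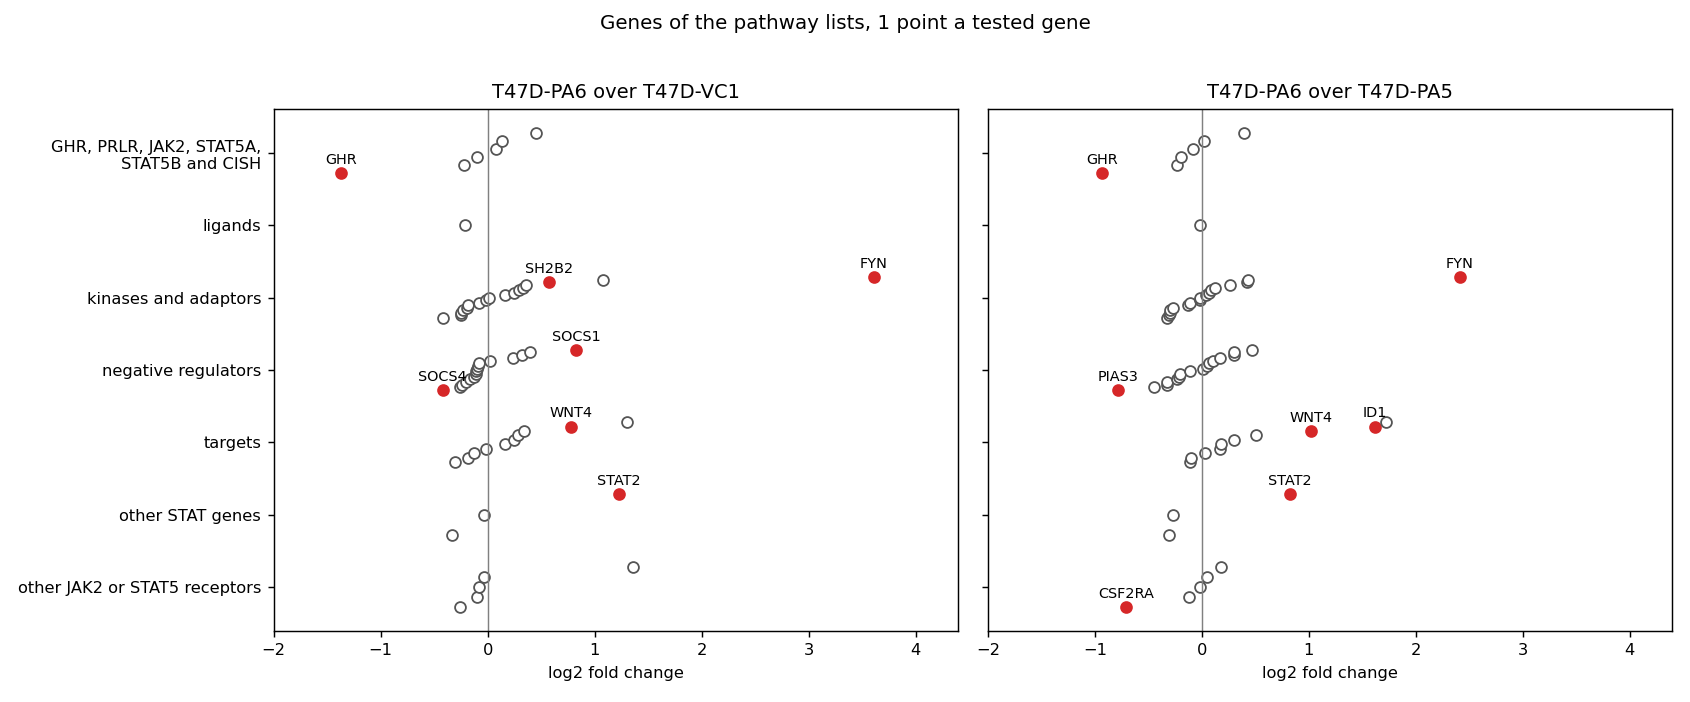
Log2 fold change of each tested gene, grouped by its role in the pathway, in T47D-PA6 over T47D-VC1 (left) and over T47D-PA5 (right), from limma. Filled, named points passed an adjusted p of 0.05 over all genes. GHR is the lowest point of either panel, and FYN, at 3.61, is the highest in the left panel. FYN was above background on 1 of 3 T47D-VC1 arrays, and the size of its difference depended on the background correction.

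The genes whose log2 signal over the 9 arrays was most like that of GHR, out of 18234 compared, were PHOSPHO2-KLHL23 (Pearson's r 0.983), CHFR-DT (r 0.983) and NEBL (r 0.982). The 9 arrays share 3 lines, so the coefficients mostly describe the order of the lines, and no p is given.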

How the data were processed

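Total RNA from the 9 T47D samples was labelled and hybridized by the authors to Agilent SurePrint G3 Human v3 one-colour arrays, and scanned intensities were extracted with Feature Extraction, version 10.7.1.1 per the file headers and 9.5.1.1 per the submitters' processing notes. The deposited scanner files give background-subtracted intensity per spot. The authors' deposited table gives quantile-normalized intensities on a linear scale, and their log2 values served as an alternative. From the 62976 spots of an array, control spots and 46 to 117 outlier spots were left out, spots of a probe were averaged, and log2 intensities were quantile-normalized. Names were matched to RefSeq (GRCh38.p14) by symbol for 31127 of 58201 probes, by accession for 3343 and by synonym for 495, and kept as in the files for 23236.

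Each gene took the values of the brightest of its tested probes, by mean. The 9 arrays were fitted together in limma (version 3.58.1, R 4.3.3; 6 residual degrees of freedom), with Benjamini-Hochberg adjustment over all genes or, in a separate fit, all probes tested, at a threshold of 0.05. The code was tested on simulated data. Named genes were the 7 of the pathway, up to 4 genes called from each pathway list, and the 3 genes most like each gene called. These genes and lists were chosen with earlier results of these data known. Of the lists, 1 gene is not reported here and enters no list count. Deviations of same-numbered arrays from their line means correlated in every pair of T47D-PA6 with T47D-VC1 (0.34, 0.13 and 0.24) and with T47D-PA5 (0.27, 0.17 and 0.17). Some arrays with unlike numbers correlated more, such as T47D-VC1 replicate 2 with T47D-PA6 replicate 3 (0.24). Across lines, the replicate 1 arrays, on the slide scanned earlier, correlated with each other (0.34, 0.27 and 0.21). With the other arrays their correlations were negative (-0.31 to -0.13). The replicate 2 and 3 arrays all correlated positively across lines (0.10 to 0.26). The deviations thus followed the scan run, and the reason was not tested. The main fit took neither pairing nor scan run into account, and the replicate number and the slide were blocks only in alternatives. Alternatives were other normalization, filters, blocks, tests and probe rules, each array left out in turn and, chosen after seeing the data, only replicates 2 and 3. The number of arrays limits the precision.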

Additional observations from a re-analysis of the deposited data

How the results depend on the processing

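Under 22 alternatives the GHR difference between T47D-PA6 and T47D-VC1 was called each time (log2 -1.45 to -1.25, adjusted p 3e-04 to 0.044). Against T47D-PA5 GHR was called in 21 (-1.02 to -0.81), the exception being the methods' t-test (adjusted p = 0.059). The PRLR probe A_24_P671164 was called in 20 against T47D-VC1, the exceptions being that test (adjusted p = 0.078) and the fit without T47D-PA6 replicate 3, and in 12 against T47D-PA5, not with the slide as a block (adjusted p = 0.066). With the methods' t-test, the genes of the pathway called were 0 in T47D-PA6 over T47D-PA5, and the probes called were 1 over T47D-VC1 and 0 over T47D-PA5. Without a filter on dim probes, 2 genes passed the fold definition in T47D-PA6 over T47D-PA5. These were GHR and SOCS2, and SOCS2 was below the detection call on every array.

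The replicate block called 2617, 490 and 2427 of all genes in T47D-PA6 over T47D-VC1, T47D-PA5 over T47D-VC1 and T47D-PA6 over T47D-PA5, beside 2017, 335 and 1952 without it. Between T47D-PA5 and T47D-VC1 the same-numbered correlations were 0.21, 0.10 and 0.12. In none of the 3 comparisons did every array correlate best with its own number. Of the calls among the 7 genes, the block changed only that of PRLR probe A_24_P671164 against T47D-PA5 (adjusted p = 0.058). It called 1 of the 52 pathway list genes in T47D-PA5 over T47D-VC1, as did the slide block and an intensity trend in the prior variance, beside 0 without. In the PA6 comparisons the list count of 6 fell over T47D-VC1 to 3 with no filter and 2 with the t-test, and over T47D-PA5 to 1 with no filter, 3 with the slide block and 1 with the t-test.

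With each array left out in turn, the genes of the pathway called were 1 to 2 in T47D-PA6 over T47D-VC1, the 2 without T47D-PA5 replicate 1. The list counts were 2 to 8, 0 to 3 and 1 to 9 in the 3 comparisons, and all genes called 696 to 2760, 100 to 594 and 715 to 2965. With replicates 2 and 3 only, limma called 3, 3 and 2 genes of the pathway, 5, 3 and 5 probes and 22, 18 and 28 list genes, beside 7380, 3962 and 7094 of all 21061 genes. All genes called were 1285, 198 and 1262 with no filter, 432, 39 and 790 with the t-test, 608 in T47D-PA5 over T47D-VC1 with the slide block, and 1146 in T47D-PA6 over T47D-VC1 with only the compared lines.

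Signs turned only for values near 0 that were not called. In T47D-PA5 over T47D-VC1, PRLR was 0.02 with the 75th percentile shift, 0.04 without T47D-VC1 replicate 1, 0.06 without T47D-PA5 replicate 1 and 0.12 with replicates 2 and 3 only, and PRLR probe A_33_P3416757 was 0.05 and 0.03 in the second and last of these. CISH was 0.01 without T47D-VC1 replicate 2 or 3 or T47D-PA5 replicate 3 and 0.08 without T47D-PA5 replicate 2. STAT5A was -0.05 and -0.08 without T47D-PA5 replicate 2 or 3, and JAK2 -0.02 without the latter. In T47D-PA6 over T47D-PA5, JAK2 was -0.05 with the slide block, -0.10 without T47D-PA5 replicate 1, -0.03 without T47D-PA6 replicate 3 and -0.02 with replicates 2 and 3 only. In T47D-PA6 over T47D-VC1, STAT5B was -0.02 without T47D-PA6 replicate 1 and PRLR 0.01 with replicates 2 and 3 only. Over the fits with 1 array left out, the values of these results ran from -0.07 to 0.06 for PRLR, -0.17 to 0.05 for its probe A_33_P3416757, -0.21 to 0.08 for CISH, -0.08 to 0.33 for STAT5A and -0.02 to 0.23 for JAK2 in T47D-PA5 over T47D-VC1, -0.10 to 0.15 for JAK2 in T47D-PA6 over T47D-PA5, and -0.02 to 0.15 for STAT5B in T47D-PA6 over T47D-VC1. The cause was not tested. The dim signals of JAK2, STAT5A and above all SOCS2 limit what the arrays can show.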
